A study of Mus musculus with 27 samples.

Results

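The genes described here are 9 transcription factors of stomach and intestinal identity, Gata4, Gata6, Pdx1, Sox2, Cdx1, Cdx2, Hnf4a, Foxa2 and Barx1, out of 56691 genes in the deposited table. They were chosen by symbol, with the levels of Gata6, Pdx1 and Cdx2 in wild-type organoids at passage 15 in view, so every value of that group is given as a description with no test. All 9 were found in the table, and 7 of them passed the filter on low counts. Cdx1 and Barx1 did not. Levels are CPM, counts scaled to the library total after TMM correction, as mean ± SD of 3 libraries unless a library's own value is given. Levels of different genes are compared as FPKM, the deposited value that also divides by exonic length.

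The 21 libraries came from organoids grown from the stomach corpus of mice, 3 libraries in each of 7 groups. Mist1+ organoids were started from sorted RFP+ cells of mice that carry CreERT2, a tamoxifen-inducible Cre, under Mist1 and the RFP LSL reporter, and were sampled at passages 5, 10 and 15 (called wild type here). Gpx4 knockout organoids came from mice of the same kind that also carry Gpx4F/F, at the same 3 passages. Mist1- organoids were sampled at passage 5 only, and how their cells were sorted is not given in the sources used here. All groups were kept in a proliferation medium in Matrigel. Since the Cre is driven by Mist1, the knockout was aimed at cells with that driver and their progeny. Nothing in the labels ties the 3 libraries to separate cultures or animals, and p-values measure only the spread between libraries, which may be technical. In RNA from whole cultures, fewer cells of a type and less RNA per cell cannot be told apart.

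GATA4 and GATA6 are zinc finger factors of the endoderm, and FOXA2 and HNF4A are a forkhead and a nuclear receptor factor that open and maintain enhancers along the gut. SOX2 marks the stomach, PDX1 marks the antrum, duodenum and pancreas, and CDX1 and CDX2 are caudal-type homeobox factors that set intestinal fate and are switched on in intestinal metaplasia of the stomach. BARX1 is a homeobox factor of the stomach mesenchyme that lowers Wnt signals to the overlying epithelium.

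Each library held 13805585 to 19608956 counts in genes. Gpx4, the glutathione peroxidase that protects cells from ferroptosis, was at 130 ± 5.60 CPM in wild type and 99.4 ± 1.70 in knockout at passage 5, at 117 ± 6.39 and 95.3 ± 6.45 at passage 10, and at 142 ± 47.6 and 85.8 ± 2.45 at passage 15. The transcript was thus lower but still present in the libraries labelled knockout, and gene counts do not separate the floxed exons. Bhlha15, which encodes MIST1, was at 5.50 ± 0.625 CPM in the libraries labelled Mist1+ and 10.4 ± 2.15 in those labelled Mist1- at passage 5, lower in the first (log2 change -0.92 ± 0.134, adjusted p = 5.48e-10). Replicates of wild-type passage 15 lay far apart, with a biological coefficient of variation of 21.3% against 1.89% to 3.07% in the other groups. Mesenchymal, pancreatic and immune or endothelial marker lists summed to at most 1.05, 0.6 and 2.23 FPKM in any library.

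In the mouse assembly GRCm38 (GENCODE M21), Gata4 lies on chromosome 14 at 63198922 to 63271692 on the minus strand. Sox2 lies on chromosome 3 at 34650405 to 34652461 on the plus strand, and Barx1 on chromosome 13 at 48662998 to 48666507 on the plus strand. Hnf4a and Foxa2 share chromosome 2, at 163506808 to 163572910 on the plus strand and 148042877 to 148046969 on the minus strand. Pdx1 at 147269959 to 147275848 on the plus strand and Cdx2 at 147300805 to 147307270 on the minus strand are neighbours on chromosome 5, with 24957 bases between them. They belong to the ParaHox cluster, together with Gsx1, whose group means were at most 0.0417 CPM.

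The stretches just upstream of Pdx1, Cdx2 and Sox2 are shown because Pdx1 and Cdx2 are the neighbours with opposite levels in wild-type passage 15, while Sox2 is the stomach factor that stayed on in every group. Each is read 5′ to 3′ on the gene's strand from RefSeq (GRCm38.p6), and stops before the annotated start of the gene. Capitals mark 3 motifs, TTTAT as the core of CDX sites, AGATAA of GATA sites and CAAAG of HNF4 half-sites, searched on both strands. The Pdx1 stretch is chr5:147269847-147269958 (plus strand), the Cdx2 stretch chr5:147307271-147307499 (minus strand) and the Sox2 stretch chr3:34649745-34649994 (plus strand).
Pdx1: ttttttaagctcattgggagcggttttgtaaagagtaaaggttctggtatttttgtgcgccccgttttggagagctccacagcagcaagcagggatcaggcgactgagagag
Cdx2: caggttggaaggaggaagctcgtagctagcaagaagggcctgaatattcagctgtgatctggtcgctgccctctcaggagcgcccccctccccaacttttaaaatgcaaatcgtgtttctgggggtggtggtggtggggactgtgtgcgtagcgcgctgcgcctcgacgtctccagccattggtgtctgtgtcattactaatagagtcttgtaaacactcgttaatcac
Sox2: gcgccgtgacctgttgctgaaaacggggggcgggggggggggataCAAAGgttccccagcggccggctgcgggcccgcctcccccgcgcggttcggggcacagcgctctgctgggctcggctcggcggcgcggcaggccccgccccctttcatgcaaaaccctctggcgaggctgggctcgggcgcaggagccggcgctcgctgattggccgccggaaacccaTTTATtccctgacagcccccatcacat
The Pdx1 and Cdx2 stretches hold none of the 3 motifs, and the Sox2 stretch holds 1 TTTAT and 1 CAAAG. In the whole RefSeq window, from 250 bases before to 50 after the start, Cdx2 again held none and Pdx1 held 1 CAAAG. Of 32851 such windows over all genes, 40.0% held TTTAT, 11.2% AGATAA and 53.9% CAAAG, so these matches are a description of the letters only.

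Hnf4a had the highest FPKM of the 9 genes in every group and Gata4 came next. In wild-type organoids at passage 5 the order was Hnf4a at 53.7 ± 0.657 FPKM, Gata4 at 18.9 ± 1.38, Pdx1 at 17.1 ± 0.729, Sox2 at 9.68 ± 1.46, Gata6 at 7.14 ± 0.108, Foxa2 at 2.97 ± 0.369 and Cdx2 at 0.447 ± 0.127. Gata4 and Pdx1 overlapped in that order, at 17.7 to 20.4 and 16.4 to 17.9 FPKM. In Mist1- organoids Pdx1 stood below Foxa2 and Gata6, at 2.71 ± 0.405 FPKM against 5.97 ± 0.667 and 5.69 ± 0.527, and the last 2 overlapped. At wild-type passage 15 the third place was held by Cdx2 at 12.7 to 16.5 FPKM, just above Sox2 at 10.8 to 12.7, while Pdx1 at 1.09 ± 0.200 and Gata6 at 0.14 ± 0.07 came last among the 7 genes that passed the filter. In knockout passage 15 Cdx2 was at 0.02 ± 0.0173 FPKM and Sox2 at 16.1 ± 0.866.

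**Figure D1:**
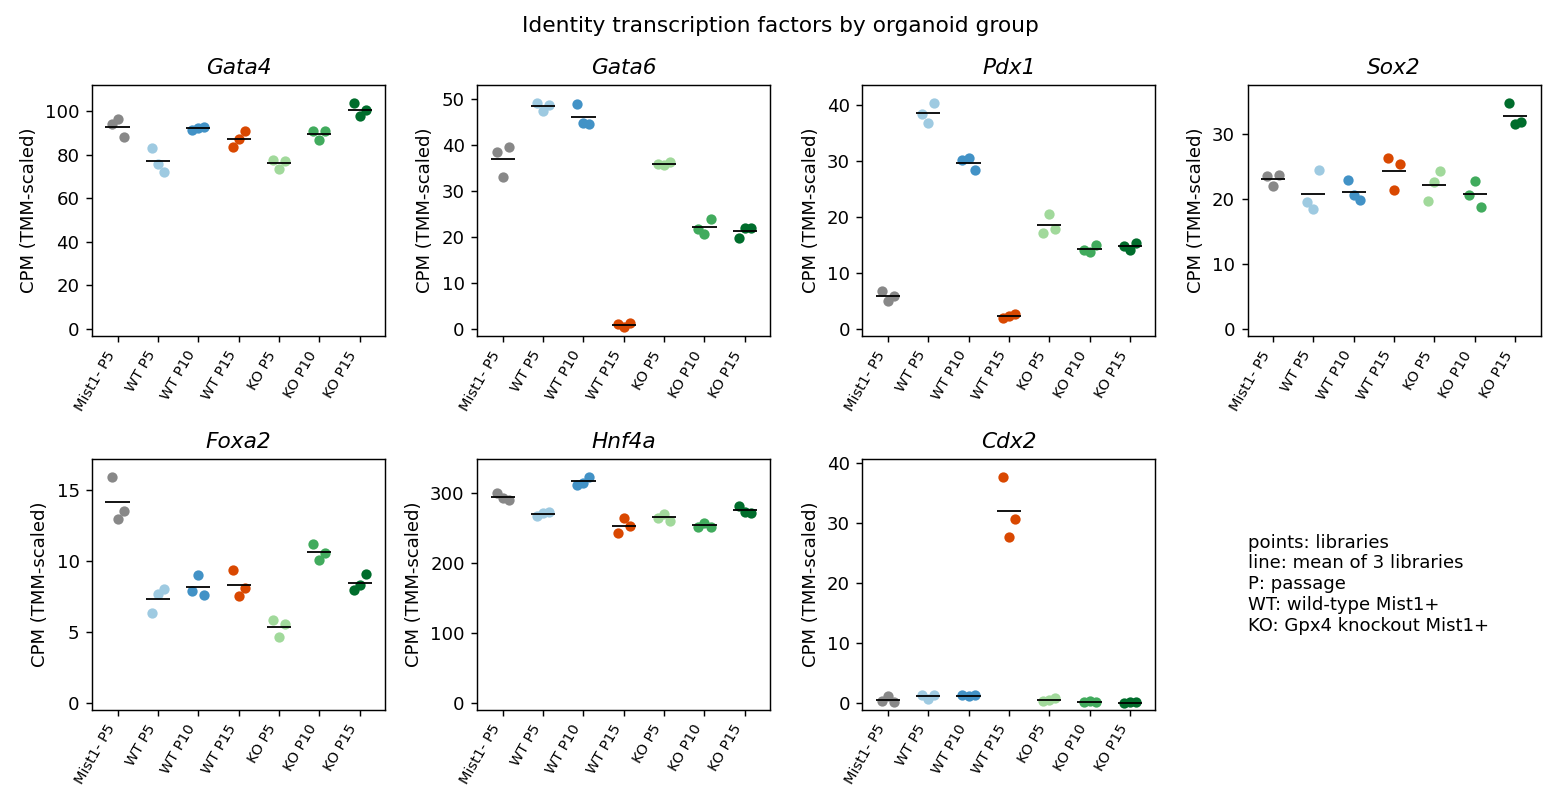
CPM of the 7 detected genes in each library (points, 3 per group, with the group mean as a line) for the 7 groups on the horizontal axis. Gata6 and Pdx1 are lowest and Cdx2 highest in the 3 wild-type passage 15 libraries, while Gata4 and Hnf4a stay between 72.1 and 104 CPM and between 243 and 323 CPM in all 21.

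Comparisons were tested over the 18 libraries outside wild-type passage 15, and a gene is said to have risen or fallen where its adjusted p was under 0.05. At passage 5, 5 of the 7 tested factors differed between Mist1+ and Mist1- organoids, 2 higher and 3 lower, against 52.6% of all 14984 genes tested (26.8% higher and 25.7% lower). Between knockout and wild type at passage 5, 3 of 7 differed, all lower, where 47.4% of all genes did (22.2% higher and 25.2% lower). At passage 10, 5 of 7 did, 1 higher and 4 lower, where 52% of all genes did (24.7% higher and 27.3% lower). From passage 5 to 10 in wild type 3 of 7 changed, 2 up and 1 down, against 18.5% of all genes (9.19% up and 9.27% down). In knockout 6 of 7 changed over those passages, 2 up and 4 down, against 22.2% (11.7% up and 10.5% down). From passage 10 to 15 in knockout 4 of 7 changed, 3 up and 1 down, against 36.7% (16.7% up and 20% down). From passage 5 to 15 in knockout 6 of 7 did, 3 up and 3 down, against 30% (14.4% up and 15.6% down). The passage 5 to 10 change differed between genotypes for 4 of 7 factors, 1 higher and 3 lower in knockout, and for 20.1% of all genes (10.6% higher and 9.58% lower). The comparisons between Mist1+ and Mist1- and between knockout and wild type at passage 5 share the wild-type passage 5 libraries, as consecutive passages share their middle group.

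**Figure D2:**
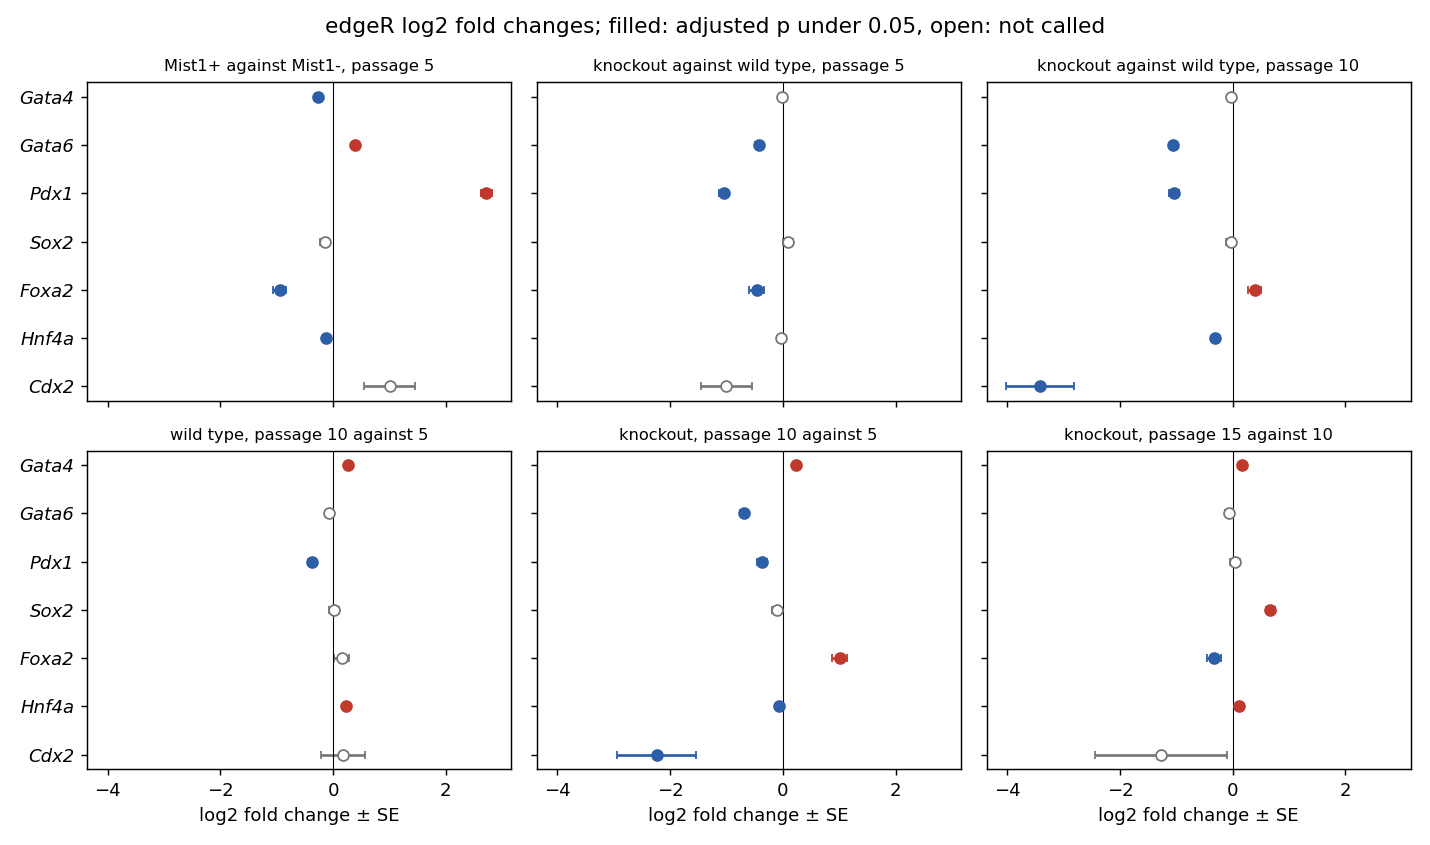
Log2 fold changes with their standard errors (horizontal axis) for the 7 tested factors in 6 comparisons, red for rose, blue for fell and open for not called. Pdx1 has the largest change between Mist1+ and Mist1- organoids, at 2.72, and Cdx2 the largest between knockout and wild type at passage 10, at -3.42.

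Pdx1, the homeobox factor of antrum, duodenum and pancreas, was high in wild-type organoids of passages 5 and 10, lower in every knockout group and lowest in Mist1- and wild-type passage 15 organoids. The 3 libraries held 38.4, 36.8 and 40.3 CPM in wild-type passage 5, and 30.1, 30.4 and 28.3 in passage 10. They held 17.1, 20.5 and 17.9 CPM in knockout passage 5, then 14.1, 13.8 and 14.9 in passage 10 and 14.8, 14.1 and 15.3 in passage 15. Mist1- libraries held 6.74, 4.98 and 5.85 CPM. The wild-type libraries of both passages thus lay above all knockout libraries, and these above all Mist1- libraries.

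Pdx1 was 6.58-fold higher in Mist1+ than in Mist1- organoids, a log2 change of 2.72 ± 0.0946 (SE, adjusted p = 1.07e-70). It was lower in knockout than in wild type by similar amounts at both passages, with log2 changes of -1.05 ± 0.0768 at passage 5 (adjusted p = 3.79e-29) and -1.04 ± 0.083 at passage 10 (adjusted p = 8.7e-26). Passage 10 was below passage 5 by 0.38 on the log2 scale in wild type (log2 change -0.38 ± 0.0725, adjusted p = 7.23e-06) and by a like amount in knockout (log2 change -0.37 ± 0.0882, adjusted p = 0.000353). The difference between these 2 changes was 0.01 ± 0.116 (SE) on the log2 scale, and did not pass the test (adjusted p = 0.975). From passage 10 to 15 in knockout the change was 0.04 ± 0.0922, also not called.

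Wild-type passage 15 libraries held Pdx1 at 1.94, 2.24 and 2.71 CPM. All 3 libraries lay below every other library of the series. The mean was 12.9-fold below wild-type passage 10, 16.8-fold below wild-type passage 5 and 6.43-fold below knockout passage 15.

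Cdx2, the caudal-type factor of intestinal fate, was low in 6 groups, at 0 to 23 counts a library, and high in wild-type passage 15. Its raw counts there were 524, 469 and 498, or 37.7, 27.6 and 30.6 CPM. The 6 wild-type libraries of passages 5 and 10 held 10 to 23 counts each, or 0.705 to 1.32 CPM. Mist1- libraries held 5, 19 and 3 counts, so the second stood apart. The knockout libraries held 6, 9 and 13 counts at passage 5, then 1, 3 and 1 at passage 10 and 0, 1 and 1 at passage 15.

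Cdx2 was lower in knockout than in wild type at passage 10, 10.7-fold or -3.42 ± 0.607 on the log2 scale (adjusted p = 2.92e-07), with no overlap between libraries. The size rests on 5 counts in the knockout, of which replicate 2 held 3. Without that replicate the log2 change was -4.17 (adjusted p = 1.16e-06), and over all alternatives it ran from -4.17 to -3.08, with adjusted p from 1.71e-07 to 2e-04. At passage 5 the change of -1.003 ± 0.45 was not called (adjusted p = 0.056), nor was that of 1.004 ± 0.453 between Mist1+ and Mist1- organoids (adjusted p = 0.0528). Leaving out 1 library called both: the first without replicate 2 of wild type (0.0363) or replicate 3 of knockout (0.03), the second without replicate 2 of Mist1- (2.12, 0.00175) or of wild type (0.0337). Over all alternatives these adjusted p ran from 0.03 to 0.225 and from 0.00175 to 0.324. Within the knockout, Cdx2 fell from passage 5 to 10 by 2.24 on the log2 scale (SE 0.7, adjusted p = 0.0102). That call rests on few counts, and was lost without replicate 3 of knockout passage 5 (adjusted p = 0.0896), or without replicate 1 (0.0526) or 3 (0.0736) of knockout passage 10, in a range over alternatives of 0.00752 to 0.0896. From passage 5 to 15 it fell as well (adjusted p = 0.000269), and 28 counts against 2 give a ratio of 13.3 with a 95% counting interval of 3.36 to 115. In wild type the change from passage 5 to 10 was 0.18 ± 0.397 and not called (adjusted p = 0.839).

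At wild-type passage 15, Cdx2 was 26.8-fold above wild-type passage 10 and 30.4-fold above passage 5. The 1491 counts there against 2 in knockout passage 15 gave a ratio of 809, with a 95% counting interval of 224 to 6690 that covers counting error only. Cdx1, the other caudal-type factor (chromosome 18, 61018862 to 61036199, minus strand), had 1, 1 and 0 counts in the same libraries and 0 in the other 18. A count of 0 over a group allows up to 0.0558 to 0.0689 CPM, and the 2 counts of wild-type passage 15 lie under that limit of 3 counts too.

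Noncoding genes beside Pdx1 were read as well. Plut, an antisense gene that overlaps Pdx1, had 9.36 ± 1.03 CPM in wild-type passage 5, 7.06 ± 0.575 in passage 10 and 0.254 ± 0.102 in passage 15. Gm27033, a noncoding gene between Pdx1 and Cdx2 that lies 4872 bases from Pdx1, had 3.26 ± 0.531, 2.78 ± 0.232 and 0.174 ± 0.1 CPM. Both were lowest where Cdx2 was highest. They were also low in Mist1- organoids, at 1.29 ± 0.465 and 0.548 ± 0.406 CPM, and rose with Pdx1 in Mist1+ against Mist1- organoids, by 2.86 ± 0.184 and 2.57 ± 0.316 on the log2 scale (adjusted p = 9.39e-35 and 3.46e-13).

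Plut fell in knockout at passage 5 (log2 change -0.42 ± 0.133, adjusted p = 0.00459). At passage 10 Plut was at 6.28, 7.88 and 8.30 CPM in knockout and 7.13, 6.45 and 7.60 in wild type, and the groups overlapped. Its change of 0.08 ± 0.136 was not called (adjusted p = 0.637), where Pdx1 fell 2.06-fold and Gm27033 fell by 1.30 on the log2 scale (adjusted p = 2.55e-05). Whether the counting used strand is not given in the sources used here, so reads of Pdx1 and Plut in their overlap cannot be told apart. Flt3 and Urad, the coding genes next to Cdx2, had group means of at most 0.068 CPM.

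**Figure D3:**
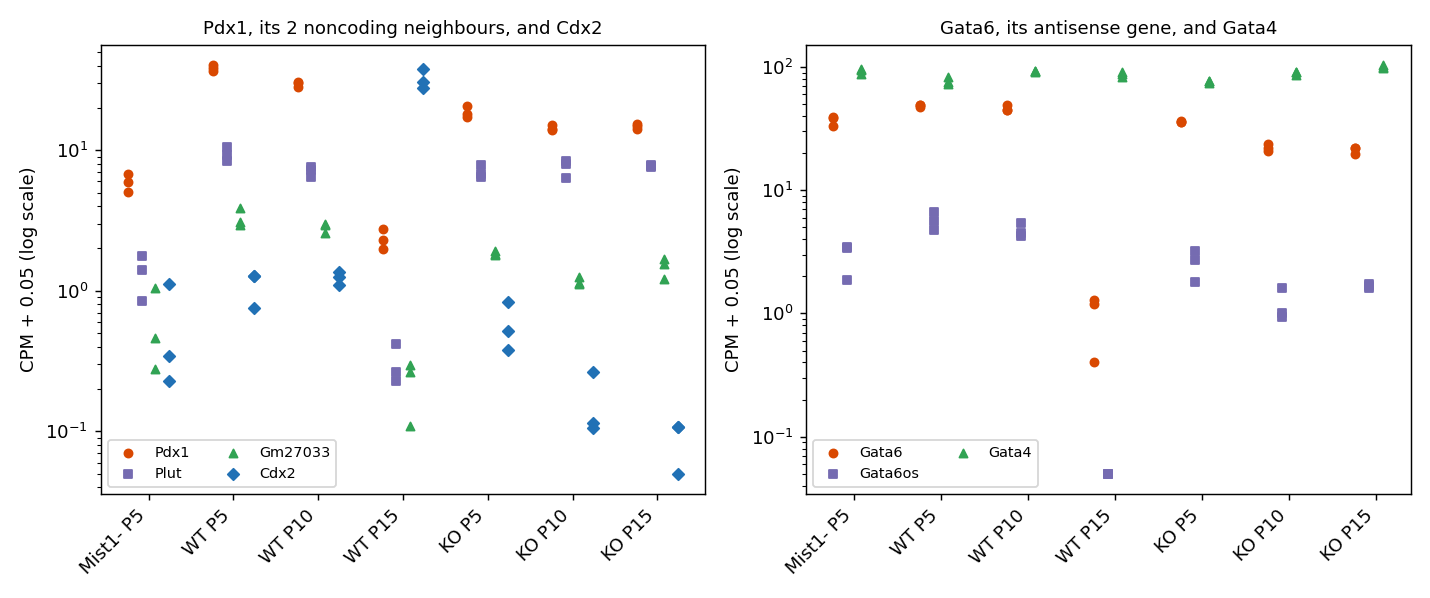
CPM + 0.05 on a log scale in each library of the 7 groups for Pdx1, Plut, Gm27033 and Cdx2 (left) and for Gata6, Gata6os and Gata4 (right). Pdx1, Plut and Gm27033 drop and Cdx2 climbs in wild-type passage 15, where Gata6os has 0 counts and Gata4 stays at 83.3 to 90.7 CPM.

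Gata6 and Gata4, the paired endodermal GATA factors, had different patterns over the groups. Gata6 lies on chromosome 18 at 11052064 to 11085635 on the plus strand. Gata6 stood at 49.1, 47.4 and 48.7 CPM in wild-type passage 5 and at 48.9, 44.7 and 44.6 in passage 10. Knockout libraries held 35.9, 35.7 and 36.3 CPM at passage 5, then 21.8, 20.6 and 23.9 at passage 10 and 19.8, 22.0 and 21.9 at passage 15. Mist1- libraries held 38.4, 33.1 and 39.6. All knockout libraries lay below all wild-type libraries of passages 5 and 10.

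Gata6 was lower in knockout by 0.43 on the log2 scale at passage 5 (log2 change -0.43 ± 0.06, adjusted p = 9.44e-11) and by more at passage 10 (-1.05 ± 0.0653, adjusted p = 2.24e-36). The widening passed the test of the difference itself, at -0.62 ± 0.0892 (adjusted p = 1.63e-09). It came from a fall in knockout between passages 5 and 10 of 1.62-fold (adjusted p = 2.01e-18), while wild type changed by -0.07 ± 0.0584 and was not called. Gata6 was 1.31-fold higher in Mist1+ than in Mist1- organoids (log2 change 0.39 ± 0.0601, adjusted p = 4.25e-09). The change from passage 10 to 15 in knockout, -0.06 ± 0.0739, was not called.

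Gata6 had 16, 6 and 20 counts in wild-type passage 15, or 1.15, 0.353 and 1.23 CPM, against at least 19.8 CPM in every other library. That mean was 50.6-fold below wild-type passage 10 and 23.3-fold below knockout passage 15. Gata6os, an antisense gene that overlaps Gata6, had 0 counts in those 3 libraries and 4.68 ± 0.624 CPM in wild-type passage 10, at least 73.4-fold higher when those 0 counts are set to 3. It fell in knockout at passages 5 and 10 too, by 1.15 ± 0.198 and 2.07 ± 0.24 on the log2 scale (adjusted p = 1.62e-07 and 2.23e-14). As with Pdx1 and Plut, reads in the overlap of Gata6 and Gata6os cannot be told apart. The values of Gata6os are therefore not taken as a reading separate from Gata6.

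Gata4 kept a narrow range, from 72.1 CPM in a wild-type passage 5 library to 104 in a knockout passage 15 library. Its log2 changes between knockout and wild type, -0.02 ± 0.0431 at passage 5 and -0.04 ± 0.0408 at passage 10, were not called (adjusted p = 0.725 and 0.462). It rose with passage in both genotypes, by 0.26 ± 0.0423 from passage 5 to 10 in wild type (adjusted p = 1.61e-07) and by 0.41 ± 0.0405 from 5 to 15 in knockout (adjusted p = 7.88e-18). Mist1+ organoids had less of it than Mist1- ones, at 77.0 ± 5.67 against 92.8 ± 4.47 CPM (log2 change -0.27 ± 0.0422, adjusted p = 6.03e-09). At wild-type passage 15 it was at 87.1 ± 3.71 CPM, 1.06-fold below passage 10.

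Sox2, the stomach marker of the set, had means in 6 groups of 20.6 to 24.3 CPM. In knockout passage 15 it was at 34.7, 31.5 and 31.8 CPM, above every other library. It rose there by 0.67 ± 0.0775 on the log2 scale over passage 10 (adjusted p = 1.34e-13) and by 0.56 ± 0.0751 over passage 5 (adjusted p = 1.05e-10). No other comparison of Sox2 passed the test, although without replicate 3 of wild-type passage 5 it was higher in knockout (0.22, adjusted p = 0.0409) and lower in Mist1+ than in Mist1- organoids (-0.28, adjusted p = 0.00708). Over all alternatives the adjusted p ran from 0.0409 to 0.884 and from 0.00708 to 0.504. Sox2 was at 26.2, 21.3 and 25.4 CPM in wild-type passage 15 and overlapped with passages 5 and 10. Barx1, the mesenchymal factor, had 1 count in 1 wild-type passage 5 library and 0 in the other 20.

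Foxa2, the forkhead factor, changed in opposite directions in the knockout at 2 passages. It was at 6.30, 7.68 and 8.01 CPM in wild-type and 5.81, 4.61 and 5.55 in knockout organoids at passage 5, and at 7.91, 8.99 and 7.60 in wild-type and 11.2, 10.1 and 10.6 in knockout at passage 10. Knockout libraries lay below wild type at the first passage and above it at the second. The log2 changes were -0.47 ± 0.139 (adjusted p = 0.0029) and 0.39 ± 0.12 (adjusted p = 0.00374), and they differed from each other by 0.85 ± 0.184 (adjusted p = 8.83e-05). In knockout it rose 2.01-fold from passage 5 to 10 (adjusted p = 1.03e-11) and was lower again at passage 15, with a log2 change of -0.33 ± 0.119 (adjusted p = 0.0194). That last call was lost without replicate 1 of knockout passage 10 (adjusted p = 0.0786), or without replicate 1 (0.0853) or 2 (0.0556) of passage 15, in a range over alternatives of 0.0178 to 0.0853. Mist1- organoids had the most Foxa2, at 16.0, 13.0 and 13.5 CPM, 1.93-fold above Mist1+ organoids (adjusted p = 1.2e-12).

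Hnf4a, the nuclear receptor factor, lay between 243 and 323 CPM in all libraries. It rose from passage 5 to 10 in wild type, from 270 ± 2.80 to 316 ± 5.91 CPM (log2 change 0.23 ± 0.0244, adjusted p = 1.36e-15). In knockout it went from 265 ± 5.35 to 253 ± 3.41 CPM, a fall of 0.06 on the log2 scale just inside the threshold (adjusted p = 0.0445). The 2 genotypes differed in this change by -0.29 ± 0.0346 (adjusted p = 3.26e-13). Knockout was thus lower at passage 10 by 0.32 on the log2 scale (log2 change -0.32 ± 0.0243, adjusted p = 1.32e-27) and not called at passage 5 (-0.03 ± 0.0247, adjusted p = 0.356). The small fall within the knockout was lost without replicate 1 (adjusted p = 0.0591) or 2 (0.19) of passage 5, or replicate 1 (0.0851) or 3 (0.0953) of passage 10, in a range over alternatives of 0.0166 to 0.539. It rose again by 0.12 ± 0.0246 from passage 10 to 15 (adjusted p = 1.85e-05), and was lower in Mist1+ than in Mist1- organoids by 0.12 on the log2 scale (log2 change -0.12 ± 0.0245, adjusted p = 3.75e-06). Wild-type passage 15 held 253 ± 10.8 CPM of Hnf4a, 1.25-fold below passage 10.

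At wild-type passage 15, 3 of the 7 genes that passed the filter, Gata6 and Pdx1 on the lower side and Cdx2 on the higher, differed from passage 10 by 2-fold or more in mean CPM + 0.1, with no overlap between libraries. Of all 15115 genes kept over the 21 libraries 11.2% did so, 3.49% higher and 7.73% lower. Against passage 5 the same 3 did, beside 10.3% of all genes (3.14% higher and 7.17% lower). Between knockout and wild type at passage 15 it was again these 3, with Gata6 and Pdx1 higher and Cdx2 lower in knockout, beside 10.1% of all genes (5.68% higher and 4.45% lower). The members were chosen on this group, so nothing is read from those counts.

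Other gut transcription factors were taken from a list of 31, of which 20 were tested. In Mist1+ against Mist1- organoids 10 rose and 6 fell, where 26.8% of all tested genes rose and 25.7% fell, with a median log2 change of 0.17 against 0 over all genes. Sox9, a factor of progenitor cells, rose by 2.39 ± 0.0579, and Barx2, a relative of Barx1, fell by 0.67 (log2 change -0.67 ± 0.0534). In knockout against wild type 5 rose and 12 fell at passage 5 (22.2% and 25.2% of all genes), and 2 rose and 14 fell at passage 10 (24.7% and 27.3% of all genes). The medians were -0.28 and -0.39, against -0.004 and -0.011 over all genes. Sox9 had log2 changes of -1.70 and -1.38 there and fell at both. Within the knockout, 10 rose and 5 fell from passage 5 to 15, where 14.4% of all genes rose and 15.6% fell.

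Hnf4g, the intestine-enriched relative of Hnf4a, and Isx, an intestinal homeobox gene, were higher by 2-fold or more in wild-type passage 15 than in passage 10 without overlap, while Foxa3, Onecut2, Spdef, Tfcp2l1 and Zfpm2 were lower. That is 2 higher and 5 lower of 21 kept, beside 3.49% and 7.73% of all kept genes. These genes were named after their values were seen. Among them Onecut2 was near the floor, at 0.316 to 0.599 CPM in wild-type passage 10 and 0 in passage 15. Its place among the 5 lower rests on few counts. Hnf4g was at 20.1, 27.3 and 26.4 CPM in wild-type passage 15, against 9.52 to 10.2 in passage 10 and 1.84 to 2.84 in knockout passage 15. Isx was at 1.80, 1.94 and 2.52 CPM in wild-type passage 15, against at most 0.44 in every other library. Of the list, 20 genes passed the filter without wild-type passage 15. Isx passed only through that group, where it is high, so nothing is read from its place among the 2 higher.

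Of 22 gastric epithelial genes 17 were tested. In Mist1+ against Mist1- organoids 14 rose and 3 fell, where 26.8% of all genes rose and 25.7% fell. In knockout against wild type 4 rose and 12 fell at passage 5 (22.2% and 25.2% of all genes), and 2 rose and 14 fell at passage 10 (24.7% and 27.3%). The medians were 2.12, -1.16 and -0.63 on the log2 scale, against 0, -0.004 and -0.011 over all genes. Gkn3, a gastrokine, rose by 4.84 ± 0.0494 in Mist1+ organoids, and Tff2, a trefoil factor of mucous neck cells, fell by 4.27 (log2 change -4.27 ± 0.0412). Gkn1, a gastrokine of pit cells, fell by 2.55 in knockout at passage 5 and fell by 1.97 at passage 10, while Tff2 rose by 1.95 and 0.48. At passage 15 of wild type, 10 of 17 were 2-fold or more below passage 10 without overlap, beside 7.73% of all kept genes, among them Mucl3 at 28.3 against 326 CPM, Muc5ac, the pit cell mucin, at 28.7 against 282, and Gkn2 at 229 against 1879. Only Aqp5, a water channel, was that much higher, at 26.7 against 7.21 CPM, beside 3.49% of all kept genes. The summed FPKM of the list ran from 2198 to 3071 in wild-type passage 15, from 9600 to 9897 in passage 10, from 6818 to 6928 in knockout passage 15 and from 2791 to 2863 in Mist1- organoids.

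The summed level of 11 squamous epithelial genes differed between groups as well. It was 170 to 177 FPKM in wild-type passage 5 against 47.0 to 47.4 in Mist1- and 42.1 to 48.1 in knockout passage 5. In wild type it was 131 to 152 FPKM at passage 10 and 137 to 198 at passage 15. In knockout it was 79.7 to 88.8 FPKM at passage 10 and 21.9 to 24.4 at passage 15. The sum rests on few genes, since at most 3 of the 11 had a mean of 1 FPKM or more in any group. Krt5, Krt14, Trp63, Dsg3 and Sprr3 of the list were at most 0.736 CPM in any library. Members of the list went opposite ways in wild-type passage 15. Krt4, a keratin of stratified squamous epithelium, was at 269, 187 and 210 CPM there, against 4.31 to 4.76 in passage 10 and at most 15.8 in every other library, a log2 ratio to passage 10 of 5.56. Krt4 was thus high in the same 3 libraries as Cdx2. The log2 ratio of Cdx2 was 4.75, taken without the 0.1 CPM added to the means of Krt4. Sprr1a, a precursor of the cornified envelope, was lower there, at 48.5, 26.8 and 31.4 CPM against 102 to 118. Both were named after their values were seen, and the part of squamous cells in these results was not tested.

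Of 33 intestinal epithelial genes 20 were tested. In Mist1+ against Mist1- organoids 13 rose and 4 fell, where 26.8% of all genes rose and 25.7% fell. In knockout against wild type 4 rose and 13 fell at passage 5 (22.2% and 25.2% of all genes), and 3 rose and 11 fell at passage 10 (24.7% and 27.3%). Their medians were 1.67, -1.16 and -0.67, against 0, -0.004 and -0.011 over all genes, each of the same sign as the gastric median. Clca1, a goblet cell secreted protein, had the smallest adjusted p each time, with a rise of 5.88 ± 0.023 in Mist1+ organoids and log2 changes in knockout of -3.17 and -2.06 at passages 5 and 10. Fcgbp, another goblet cell product, fell by 3.35 in Mist1+ organoids and rose by 1.33 in knockout at passage 5.

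The intestinal list split in wild-type passage 15, with 6 of 21 kept genes 2-fold or more above passage 10 and 6 below it, without overlap. Of all 15115 kept genes 3.49% were higher and 7.73% lower by the same measure. Cdh17, the liver-intestine cadherin and a known CDX2 target, was at 27.1, 36.5 and 29.1 CPM there, against at most 1.58 in every other library. Tff3, the intestinal trefoil factor, was at 20.8, 7.89 and 13.3 CPM against at most 0.995 elsewhere. Cdhr5, a brush border cadherin, was at 32.8, 28.3 and 28.7 CPM against at most 2.82, and Heph, the ferroxidase of enterocytes, at 5.32, 9.30 and 6.77 against at most 0.844. Of the list, 20 genes passed the filter without wild-type passage 15. Heph passed only through that group, where it is high, so nothing is read from its place among the 6 above. Muc2 and Lyz1 were the others above, and Lyz1 is nearly identical to Lyz2, so its reads are uncertain. Neither lay above all libraries of the other groups. In wild-type passage 15 Muc2 was at 1.29, 5.77 and 3.14 CPM, against 2.48 to 3.25 in Mist1- organoids. Lyz1 was at 2.37 to 3.14 CPM, against 6.98 to 8.88 in knockout passage 10. Olfm4, Mep1b, Anpep, Cdhr2, Zg16 and Clca1 were the 6 below, Olfm4 at 1.081 against 35.2 CPM and Clca1 at 1031 against 3252. These examples were chosen after their values were seen. Sis and Slc26a3, defining genes of mature enterocytes and colonocytes, had 0 counts in wild-type passage 15. Over the 21 kept genes the median log2 ratio to passage 10 was -0.13, against -0.006 over all genes. The summed FPKM of the list ran from 858 to 1067 in wild-type passage 15. It ran from 1315 to 1327 in passage 10 and from 1111 to 1123 in knockout passage 15.

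**Figure D4:**
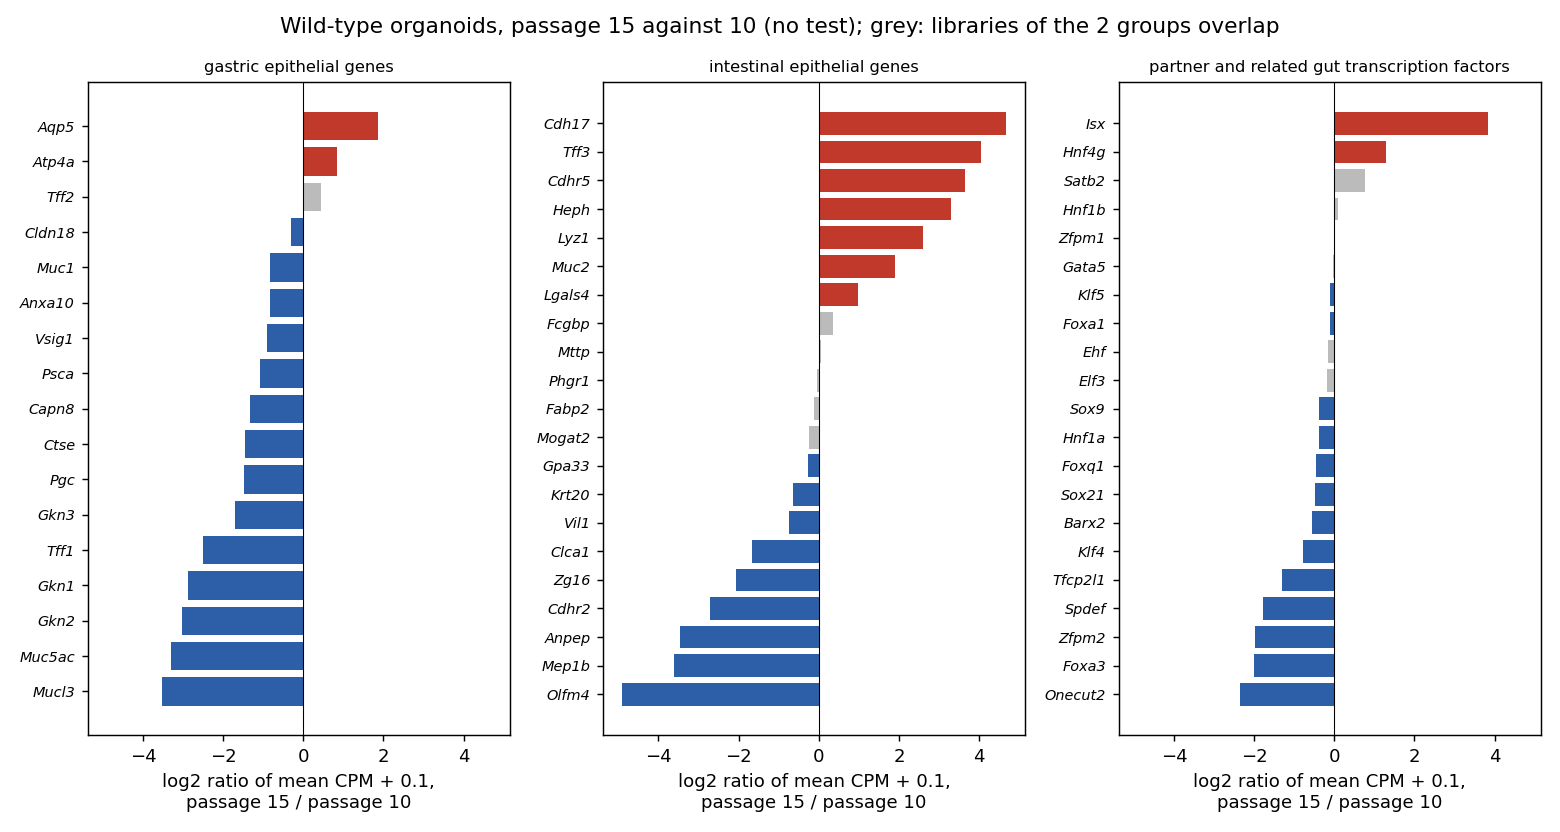
Log2 ratio of mean CPM + 0.1 in wild-type passage 15 over passage 10 for each kept gene of the gastric, intestinal and related transcription factor lists, grey where libraries overlap. Most gastric genes lie below 0, and the intestinal list splits between Cdh17 at 4.67 and Olfm4 at -4.90.

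Over the 21 libraries, the log2 CPM of Gata6 and Cdx2 had a Pearson r of -0.74, and without wild-type passage 15, over 18 libraries, an r of 0.88. For Pdx1 and Cdx2 the values were -0.55 and 0.46, and for Gata6 and Pdx1 0.81 and 0.44. Cdx2 held 0 to 23 counts in each of the 18 libraries, so its r there rests on values near the floor. Values over 21 libraries include wild-type passage 15, the group in view when the genes were chosen. Libraries of a group share genotype and passage, so all these r are descriptions of group patterns. The coding gene most like Pdx1 over 21 libraries was Xkr6 (r = 0.976), that for Gata6 Tnfaip2 (0.979) and that for Cdx2 Psrc1 (0.954), among 12014 compared. Over 18 libraries they were Depp1 (0.987), Hspa1a (0.958) and Tmem150b (0.934). Fut11 for Gata4, Dcps for Sox2 and Igf2bp2 for Foxa2 were among the closest 3 over both sets of libraries.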

How the data were processed

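RNA of 21 organoid libraries, 3 in each of 7 groups taken from the labels, was analysed. A further 6 of the 27 samples, sorted cells of 2 diets, were not analysed here. The members and gene lists were chosen with earlier results of these data known. The deposited table gives raw read counts per gene, and FPKM, which could be rebuilt from count, exonic length and total to within 0.006 in 100% of values. The authors' tools, per the submitters' processing notes, were cutadapt 1.9.1, HISAT2 2.2.1 and HTSeq 0.6.1, with GRCm38.p5 as the build. Whether counting used strand is not given in the sources used here. Of 52073 identifiers shared with GENCODE M21, 1472 had the same coordinates as in the table, so positions are those of GENCODE.

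The test used edgeR 4.0.16 in R 4.3.3 on the counts of 18 libraries, without wild-type passage 15, with group means, TMM scaling, filterByExpr (minimum count 10, total 15) and the robust quasi-likelihood F-test. That left 14984 genes with 99.9% of counts. Benjamini-Hochberg adjustment ran over all of these, with calls under 0.05, and the SE is the log2 change over the square root of F. CPM used TMM factors of all 21 libraries. Intervals and floors of 3 counts (95%) cover counting error only. Comparisons with wild-type passage 15 had no test. Fold differences of the factors there are ratios of mean CPM, or of summed counts where a group held at most 3 counts. The 2-fold shares and the list genes used mean CPM + 0.1.

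Named list genes were those with the smallest adjusted p, at most 2 in each direction of a comparison. Likeness was the Pearson r of log2 CPM (prior count 2), and its repeat over 18 libraries was added after seeing the data. Alternatives were median-ratio scaling, no filter, DESeq2 1.42.0, all 21 libraries, only the groups compared, a replicate block, limma 3.58.1 on log2(FPKM + 1) or log2(FPKM + 0.1), and each replicate left out. Libraries were not treated as paired by replicate number, and same-numbered deviations correlated at -0.03 to 0.03. Such an r over all tested genes cannot exclude a shared culture or animal, and the labels do not say. The code was tested on simulated data.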

Additional observations from a re-analysis of the deposited data

Results flagged for a closer look

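The change from passage 5 to 10 differed between knockout and wild type, by the test of that difference, for 4 factors. The difference, knockout change minus wild-type change on the log2 scale, was -0.62 for Gata6, -2.416 for Cdx2, -0.293 for Hnf4a and 0.854 for Foxa2. For Gata6, Cdx2 and Hnf4a the knockout fell while wild type did not fall past the test, and Hnf4a rose in wild type. For Foxa2 the knockout rose and the wild-type change was not called. The value for Cdx2 had an adjusted p of 0.0203, which ran from 0.0127 to 0.112 over its alternatives and rests on 5 counts in knockout passage 10. It was not called without replicate 2 of wild-type passage 5 (0.0528), replicate 3 of knockout passage 5 (0.103), or replicate 1 (0.0717) or 3 (0.0881) of knockout passage 10.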

How the results depend on the processing

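Over all alternatives run, every call of Gata4, Gata6 and Pdx1 was kept. Fitting all 21 libraries, where wild-type passage 15 enters the estimate of spread, lowered the number of genes called to 4547 from 7095 for knockout against wild type at passage 5, 738 from 2766 for wild type passage 10 against 5, 1150 from 3330 for knockout passage 10 against 5, 2717 from 5502 for passage 15 against 10, 1960 from 4492 for 15 against 5 and 897 from 3018 for the interaction. In that fit 2 rather than 4 factors were called for knockout passage 15 against 10, where Hnf4a and Foxa2 had an adjusted p of 0.0725 and 0.0607. It also ended the calls of Cdx2 (0.0771) and Hnf4a (0.539) for knockout passage 10 against 5 and of Cdx2 in the interaction (0.112). Cdx2 gave no value under limma on FPKM, or with only 2 knockout groups fitted. Without the filter Hnf4a had 0.0572 for knockout passage 10 against 5, and with only the groups compared 0.0723. With only the groups compared, Cdx2 was called between Mist1+ and Mist1- organoids (1.001, 0.0455) and between knockout and wild type at passage 5 (-0.994, 0.0384). Limma on FPKM, with a pseudocount of 1 or 0.1, turned the sign of uncalled knockout changes in Gata4 at passage 5 (0.068, 0.071) and 10 (0.033, 0.035), in Sox2 at passage 10 (0.038, 0.041), in Pdx1 in the interaction (-0.005 at 0.1), and of Hnf4a at passage 5 (0.058, 0.059, then called with adjusted p = 0.0336 and 0.0333). On that scale the share of calls that were higher moved from 51% to 38.4% and 38.3% for Mist1+ against Mist1-, from 46.8% to 66.3% and 66.4% for knockout at passage 5, and from 47.5% to 62.3% at passage 10. FPKM was not TMM-scaled in those fits. The median log2 change over all genes was 0.075 and 0.089 there for knockout at passage 5, against -0.004 in the main fit. It was 0.056 and 0.066 at passage 10, against -0.011. For Mist1+ against Mist1- it was -0.056 and -0.064, against 0. The cause of these moves was not tested. With each replicate left out in turn, uncalled values that changed sign ranged from -0.065 to 0.043 for Gata4 in knockout against wild type at passage 5, from -0.108 to 0.035 for Sox2 at passage 10, from -0.053 to 0.151 for Sox2 and -0.034 to 0.304 for Cdx2 in wild type passage 10 against 5, from -0.107 to 0.002 for Gata6 in knockout passage 15 against 10, and in the interaction from -0.082 to 0.026 for Gata4 and -0.053 to 0.088 for Pdx1. The replicate number as a block gave 7828 genes called for Mist1+ against Mist1- and 7053 for knockout against wild type at passage 5, and the block ended or added no call of a factor.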
